A study of Homo sapiens with 11 samples.

Results

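A group of 10 cytokine and chemokine genes that belongs to the usual description of the senescence-associated secretory phenotype (SASP) was followed in SK-MEL-103 cells. They were taken by name: the interleukins IL1A, IL1B, IL6 and IL11, the leukaemia inhibitory factor LIF, and the chemokines CXCL1, CXCL2, CXCL3, CXCL8 and CCL2. These 10 genes stood among 61542 genes summed from the deposited transcript tables, and all 10 were among the 17033 genes with enough reads to be tested.

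SK-MEL-103 is an established human melanoma cell line, a single line grown without other cell types. The tozasertib group was treated with 0.5 µM tozasertib, an inhibitor of the Aurora kinases that drive mitosis (n = 3, replicates 1, 2 and 4, while replicate 3 was not analysed here). The etoposide group was treated with 0.25 µM etoposide, which traps topoisomerase II on cut DNA (n = 4). The third group received the solvent DMSO (n = 4). RNA was taken after 6 days in all groups, with medium and drugs replaced on day 3, and poly(A) RNA was sequenced from stranded libraries. The study used either drug to make cells senescent, that is to stop dividing for good, and asked from these samples whether the expected expression programme was present. Nothing in the sources states that the replicates were separate cultures, so the p-values below measure a spread between samples that may be technical.

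Libraries held 27882689 to 56534763 reads with tozasertib, 28547842 to 40170233 with etoposide and 28863009 to 32957818 with DMSO. The cell cycle inhibitor CDKN1A averaged 1501 ± 14.4, 1408 ± 33.0 and 459 ± 34.2 CPM (mean ± SD, the gene's reads relative to the library total after TMM scaling, as edgeR computes it) in tozasertib, etoposide and DMSO samples, and the proliferation marker MKI67 averaged 28.6 ± 7.59, 46.2 ± 8.85 and 216 ± 30.4 CPM. The lamin B1 gene LMNB1 averaged 29.8 ± 4.45, 49.1 ± 4.72 and 223 ± 6.85 CPM, lower with both drugs (log2 -2.90 and -2.18). The melanoma transcription factor SOX10 averaged 379.8 ± 3.29, 323 ± 8.93 and 514 ± 26.4 CPM. Of 11 melanoma and melanocyte markers 5 were tested. SOX10 (log2 -0.44 and -0.67) and PAX3 (-0.23 and -0.63) were lower with both drugs. S100B (1.4951 and 0.9031) and MITF (0.2685 and 0.2955) were higher with both. The 6 markers of dedifferentiated melanoma summed to 6122 to 6515 CPM with tozasertib, 5648 to 6036 with etoposide and 3410 to 3704 with DMSO. With each drug 4 of these 6 were higher, SOX9 was lower and CD44 was not called. The pigment genes MLANA, TYR and TYRP1 were under 0.1 CPM on average in every group. The pigment gene PMEL averaged 3.86 ± 0.518, 0.405 ± 0.130 and 0.326 ± 0.189 CPM, and it was higher with tozasertib than with DMSO (log2 3.57, adjusted p = 9.80e-07) and not called with etoposide (adjusted p = 0.475). Among markers of other cell types, the pan-leukocyte gene PTPRC held 23, 8 and 6 reads over the tozasertib, etoposide and DMSO samples, and the T cell gene CD3E 1, 0 and 0 reads. The 12 immune markers summed to 44.6 to 49.4 CPM with tozasertib, 35.9 to 43.0 with etoposide and 57.1 to 69.5 with DMSO, nearly all of it from the lysosomal gene CD68. The 8 fibroblast markers summed to 136 to 141, 155 to 171 and 49.7 to 58.4 CPM. The matrix gene LUM averaged 102 ± 2.80, 106 ± 9.70 and 23.1 ± 1.5 CPM and was higher with both drugs, as was COL1A1. The transcription factor gene TWIST2, the highest of these markers in DMSO samples, averaged 16.4 ± 0.722, 17.5 ± 0.892 and 25.5 ± 2.11 CPM and was lower with both drugs (log2 -0.64 and -0.55), while DCN and THY1 averaged under 0.1 CPM. This fibroblast sum moved in the same direction as IL6, IL1B and CCL2, and its part in their change was not tested. The 7 keratinocyte markers summed to 50.7 to 59.4 CPM with tozasertib, 56.3 to 58.8 with etoposide and 48.5 to 68.5 with DMSO, mostly from KRT10. Among them KRT17 averaged 6.72 ± 1.07, 4.19 ± 0.330 and 1.11 ± 0.616 CPM (log2 2.59 and 1.92, adjusted p = 1.69e-05 and 0.000176), higher with both drugs as IL6, IL1B and CCL2 were, and KRT14 was lower with both (log2 -1.58 and -0.84), while KRT1 and DSG3 averaged under 0.1 CPM. The part of these genes in the results was not tested.

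The SASP is the set of factors that senescent cells release, and it acts on neighbouring cells and on the immune system. IL-1α and IL-1β act through the receptor IL1R1 and NF-κB, and in many cells they switch on the genes of IL-6 and of the chemokines. IL-6, IL-11 and LIF signal through the shared subunit gp130 to STAT3, the chemokines CXCL1, CXCL2, CXCL3 and CXCL8 draw neutrophils through CXCR2, and CCL2 draws monocytes through CCR2.

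Short stretches of the promoters are shown because each holds an NF-κB-like element, of 1 sequence in the neutrophil chemokine genes and of another in IL6, and these genes moved in different directions. RefSeq promoter windows (GRCh38.p14, 250 bases before to 50 bases after the start site) were found for 8 of the 10 genes, all but LIF and CCL2. Each line runs 5′ to 3′ on the coding strand, and capitals mark the NF-κB-like element.
CXCL1: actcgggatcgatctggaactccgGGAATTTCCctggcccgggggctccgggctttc
CXCL2: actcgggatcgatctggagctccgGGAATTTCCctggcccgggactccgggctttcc
CXCL3: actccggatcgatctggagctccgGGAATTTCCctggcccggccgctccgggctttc
CXCL8: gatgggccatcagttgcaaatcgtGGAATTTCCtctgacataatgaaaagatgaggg
IL6: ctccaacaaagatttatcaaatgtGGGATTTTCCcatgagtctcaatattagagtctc

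In the first 4 lines the capitals are the letters GGAATTTCC, which begin 78, 77, 78 and 91 bases before the start of CXCL1, CXCL2, CXCL3 and CXCL8. The IL6 element begins 73 bases before its RefSeq start. The stretches lie at chr4:73869291-73869347 (CXCL1, plus strand), chr4:74099240-74099296 (CXCL2, minus), chr4:74038735-74038791 (CXCL3, minus), chr4:73740454-73740510 (CXCL8, plus) and chr7:22727103-22727160 (IL6, plus). The 4 chemokine genes sit in 1 cluster on chromosome 4. The windows of CXCL1 and CXCL3 were identical at 82.5% of aligned bases, those of CXCL1 and CXCL2 at 73.0%, and those of CXCL1 and CXCL8 at 46.2%.

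Motifs, chosen with the expression values known, were searched on both strands of the 35116 RefSeq windows. The letters GGAATTTCC were in 0.461% of all windows and in 4 of the 8 genes' windows. The longer NF-κB consensus was in 5.91% of all windows and in IL6, CXCL1, CXCL2 and CXCL3. Its matches overlap the letters GGAATTTCC in those 3 chemokine genes, whereas IL6 does not hold these letters. The AP-1 letters TGANTCA were in 7.71% of all windows and in IL1A, IL11 and CXCL8, and the C/EBP letters TTGCNNAA were in 10.5% and in IL6, IL1B and CXCL2. A match describes the letters and says nothing of binding in these cells.

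With tozasertib, 3 of the 10 genes were higher than with DMSO (IL6, IL1B, CCL2), 4 were lower (IL1A, IL11, CXCL1, CXCL8) and 3 were not called, at an adjusted p under 0.05 in edgeR's quasi-likelihood test with Benjamini-Hochberg adjustment. Of all genes tested 59.2% were called in that comparison, 29.9% higher and 29.4% lower. With etoposide, the same IL6, IL1B and CCL2 were higher than with DMSO and the other 7 were lower, against 58.3% of all genes called, 27.7% higher and 30.6% lower. Both drugs share the DMSO samples, so these are not independent comparisons. Between tozasertib and etoposide, 5 genes were higher with tozasertib (IL6, IL1A, CXCL1, CXCL2, CXCL8), 1 was lower (IL11) and 4 were not called, where 11.1% of all genes were called, 5.66% higher and 5.45% lower.

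The median log2 fold change of the 10 genes was -0.16 for tozasertib against DMSO, -0.69 for etoposide against DMSO and 0.60 for tozasertib against etoposide, beside medians of 0.02, -0.01 and 0.01 over all genes tested. CPM did not overlap between tozasertib and DMSO for 6 of the 10 genes, 3 higher and 3 lower, against 59.8% of all genes (30.4% higher and 29.4% lower). Etoposide and DMSO did not overlap for 9, of which 3 were higher and 6 lower, against 51.2% of all genes (24.2% and 27.0%). Tozasertib and etoposide did not overlap for 7, of which 6 were higher and 1 lower, against 30.9% (15.2% and 15.7%). The count of all genes called between the drugs was 1893, and it was 1032 without tozasertib replicate 1 and 1069 without tozasertib replicate 2. Its split of 964 higher and 929 lower became 1034 and 1550 with DESeq2, and 1026 and 1765 with an offset for gene length.

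**Figure D1:**
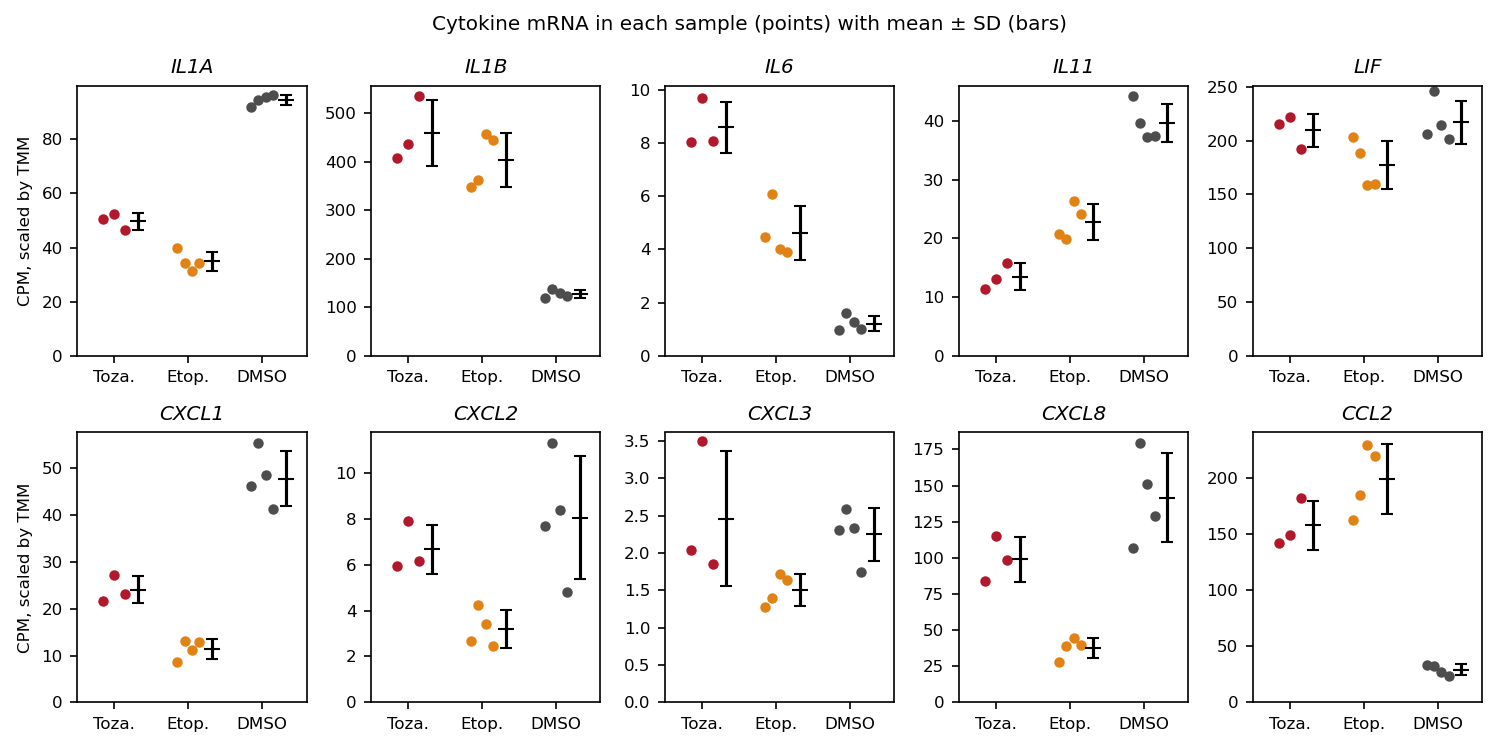
CPM of each of the 10 genes (vertical axes from 0, scaled by TMM) in each tozasertib, etoposide and DMSO sample (points), with the mean ± SD of the group as a bar beside them. IL1B, IL6 and CCL2 are higher in every drug-treated sample than in every DMSO sample, and IL1A, IL11 and CXCL1 are lower in every one.

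The IL-1 pair stood on opposite sides of DMSO. IL1A encodes IL-1α, which can stay on the cell surface and act on neighbouring cells. IL1A had 50.5, 52.5 and 46.3 CPM in the tozasertib samples, 39.8, 34.1, 31.4 and 34.5 CPM in the etoposide samples and 91.8, 94.5, 95.5 and 96.2 CPM in the DMSO samples. Both drug groups lay under every DMSO sample, and every etoposide sample lay under every tozasertib sample. The log2 fold change was -0.93 (SE 0.08, adjusted p = 3.29e-07) for tozasertib and -1.43 (SE 0.07, adjusted p = 2.53e-09) for etoposide, a level 1.9-fold and 2.70-fold lower than with DMSO. Tozasertib was above etoposide by 0.51 (SE 0.08, adjusted p = 0.000787).

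IL1B encodes IL-1β, which is made as a precursor and cut before release. IL1B had 407, 436 and 535 CPM in the tozasertib samples, 348, 363, 458 and 444 CPM in the etoposide samples and 118, 137, 129.6 and 123 CPM in the DMSO samples. Every drug-treated sample was above every DMSO sample, and the drug groups overlapped. On the log2 scale the fold change was 1.85 (SE 0.11, adjusted p = 1.45e-08, 3.62-fold) for tozasertib and 1.67 (SE 0.11, adjusted p = 2.37e-08, 3.18-fold) for etoposide. The difference between tozasertib and etoposide was 0.19 (SE 0.11, adjusted p = 0.339).

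Both IL-1 genes lie close together on chromosome 2 on the minus strand (GRCh38, IL1A chr2:112773925-112784493, IL1B chr2:112829751-112836816). In TPM, Salmon's unit that is set per length and so allows genes to be compared, IL1B over IL1A was 12.5 ± 2.57 with tozasertib, 15.4 ± 3.18 with etoposide and 1.81 ± 0.0996 with DMSO (SD). The lowest ratio in a drug-treated sample was 10.8 and the highest in a DMSO sample was 1.95.

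Among the gp130 cytokines IL6 was higher and IL11 lower with both drugs. IL6 encodes interleukin 6, an inducer of the acute-phase response and a widely studied SASP factor. IL6 had 8.02, 9.70 and 8.07 CPM in the tozasertib samples, 4.45, 6.09, 4.00 and 3.91 CPM in the etoposide samples and 0.967, 1.60, 1.28 and 1.01 CPM in the DMSO samples. The 3 groups did not overlap, and the counts behind these values were small, with 277 to 469 reads with tozasertib, 112 to 188 with etoposide and 28 to 45 with DMSO. The fitted log2 fold change was 2.82 (SE 0.20, adjusted p = 6.34e-08, 7.06-fold) for tozasertib and 1.92 (SE 0.19, adjusted p = 1.82e-06, 3.79-fold) for etoposide. Tozasertib was above etoposide by 0.90 (SE 0.18, adjusted p = 0.00543), 1.86-fold.

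Reads of IL6 (chr7:22725884-22732002, plus strand, with a GENCODE start upstream of the RefSeq start used for the promoter) were spread over several transcript models. Pooled over each group, the canonical transcript held 41.3% of them with tozasertib, 40.2% with etoposide and 54.7% with DMSO. Single samples varied, with 30.9 of 182 reads in etoposide replicate 1 and 92.9 of 142 in etoposide replicate 3. A model that retains an intron held 27.8%, 23.6% and 26.9%. The gene's total therefore counts reads that Salmon gave to a model without a coding sequence.

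IL11 encodes interleukin 11, which acts on platelet precursors and on stromal cells. IL11 had 11.5, 13.1 and 15.9 CPM in the tozasertib samples, 20.7, 19.9, 26.4 and 24.1 CPM in the etoposide samples and 44.3, 39.6, 37.2 and 37.5 CPM in the DMSO samples. The groups did not overlap, with tozasertib lowest and DMSO highest. The log2 fold change was -1.56 (SE 0.13, adjusted p = 2.40e-07, 2.95-fold lower) for tozasertib and -0.80 (SE 0.11, adjusted p = 3.78e-05, 1.74-fold lower) for etoposide. For tozasertib against etoposide it was -0.76 (SE 0.12, adjusted p = 0.00151), and no other of the 10 genes was called lower in that comparison. The gene lies at chr19:55364382-55370463 on the minus strand.

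LIF encodes leukaemia inhibitory factor, known for keeping mouse stem cells undifferentiated. LIF had 215, 222 and 192 CPM in the tozasertib samples, 204, 189, 158 and 159.7 CPM in the etoposide samples and 206, 246, 214 and 202 CPM in the DMSO samples. All 3 groups overlapped. On the log2 scale the fold change was -0.05 (SE 0.10, adjusted p = 0.677) for tozasertib, -0.29 (SE 0.09, adjusted p = 0.0154) for etoposide and 0.24 (SE 0.10, adjusted p = 0.152) for tozasertib against etoposide. The etoposide call was lost without DMSO replicate 2 (-0.22, adjusted p = 0.0545). It was also lost when libraries were scaled by size alone (adjusted p = 0.0533) and with length-scaled counts (adjusted p = 0.123). The gene lies at chr22:30240453-30246759 on the minus strand.

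The 4 neutrophil chemokines were lower with etoposide than with DMSO, and with tozasertib they lay between etoposide and DMSO or overlapped DMSO. CXCL1 was first described as a melanoma growth factor. CXCL1 had 21.7, 27.3 and 23.2 CPM in the tozasertib samples, 8.56, 13.2, 11.2 and 12.9 CPM in the etoposide samples and 46.1, 55.3, 48.5 and 41.2 CPM in the DMSO samples. The groups did not overlap. The fitted log2 fold change was -0.99 (SE 0.14, adjusted p = 4.43e-05, 1.99-fold lower) for tozasertib and -2.06 (SE 0.13, adjusted p = 2.76e-08, 4.18-fold lower) for etoposide. Tozasertib was 2.10-fold above etoposide (log2 1.07, SE 0.14, adjusted p = 0.000303).

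CXCL8 encodes interleukin 8, the main neutrophil attractant in human tissue. CXCL8 had 83.8, 115 and 98.5 CPM in the tozasertib samples, 28.1, 38.7, 44.6 and 39.4 CPM in the etoposide samples and 107, 179, 151 and 129 CPM in the DMSO samples. Every etoposide sample was under every other sample, and the tozasertib and DMSO samples overlapped. The log2 fold change was -1.91 for etoposide (SE 0.17, adjusted p = 5.10e-07, 3.76-fold lower) and -0.52 for tozasertib (SE 0.18, adjusted p = 0.0221, 1.43-fold lower). Tozasertib was 2.63-fold above etoposide (log2 1.39, SE 0.18, adjusted p = 0.000201). The tozasertib call against DMSO was lost without tozasertib replicate 1 (-0.41, adjusted p = 0.103), without DMSO replicate 2 (-0.38, adjusted p = 0.0692) and without tozasertib replicate 4 (-0.52, adjusted p = 0.0563). Scaling by library size alone, length-scaled counts and the length offset also ended it (adjusted p = 0.0556, 0.0536 and 0.0625).

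CXCL2 and CXCL3 encode close relatives of CXCL1 and were the least abundant of the chemokines. CXCL2 had 5.95, 7.88 and 6.17 CPM in the tozasertib samples, 2.67, 4.24, 3.41 and 2.44 CPM in the etoposide samples and 7.67, 11.3, 8.38 and 4.82 CPM in the DMSO samples. Etoposide lay below both other groups, and tozasertib overlapped DMSO. The log2 fold change of CXCL2 was -0.28 (SE 0.24, adjusted p = 0.347) for tozasertib, -1.33 (SE 0.24, adjusted p = 0.000322, 2.52-fold lower) for etoposide and 1.06 (SE 0.25, adjusted p = 0.0160) for tozasertib against etoposide. Without tozasertib replicate 2 the last of these was 0.92 (adjusted p = 0.0820).

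CXCL3 had 2.04, 3.50 and 1.85 CPM in the tozasertib samples, 1.27, 1.39, 1.72 and 1.64 CPM in the etoposide samples and 2.31, 2.59, 2.34 and 1.75 CPM in the DMSO samples. The etoposide samples were all below the DMSO samples, by a margin of 1.72 against 1.75 CPM at the nearest, and tozasertib replicate 2 stood above every other sample. The log2 fold change of CXCL3 was 0.11 (SE 0.24, adjusted p = 0.697) for tozasertib, -0.58 (SE 0.23, adjusted p = 0.0419) for etoposide and 0.69 (SE 0.24, adjusted p = 0.0842) for tozasertib against etoposide. Without tozasertib replicate 2 the value for tozasertib against DMSO was -0.21. Pooled by group, a CXCL3 model without a defined coding sequence held 32.4% of reads with tozasertib, 20.6% with etoposide and 26.5% with DMSO. The etoposide call rested on 43 to 61 reads with etoposide and 52 to 75 with DMSO. It was lost without DMSO replicate 1, 2 or 3 (adjusted p = 0.0638, 0.102 and 0.0795) and without etoposide replicate 1, 2 or 4 (adjusted p = 0.104, 0.0879 and 0.0553).

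The 3 related chemokines share sequence. Canonical transcripts of CXCL1 and CXCL2 were identical at 83.9% of aligned bases, and 0.54% of the 72-base windows of CXCL1, 3.07% of those of CXCL2 and 2.59% of those of CXCL3 also occurred in another of the 3 genes, 72 bases being the read length. Reads from such windows can only be divided by Salmon's estimate, and no such window was shared by the other 7 genes. Their positions are chr4:73869393-73871308 (CXCL1, plus strand), chr4:74097040-74099196 (CXCL2, minus), chr4:74036589-74038807 (CXCL3, minus) and chr4:73740519-73743716 (CXCL8, plus).

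CCL2, which encodes the monocyte attractant MCP-1, showed the largest fold change of the 10 genes with etoposide. CCL2 had 142, 149 and 182 CPM in the tozasertib samples, 162, 185, 229 and 219.7 CPM in the etoposide samples and 33.8, 32.5, 27.2 and 23.3 CPM in the DMSO samples. Every drug-treated sample was above every DMSO sample, and the drug groups overlapped. On the log2 scale the fold change was 2.43 (SE 0.15, adjusted p = 1.29e-08, 5.40-fold) for tozasertib and 2.77 (SE 0.14, adjusted p = 3.01e-09, 6.82-fold) for etoposide. Between tozasertib and etoposide it was -0.34 (SE 0.14, adjusted p = 0.160), which became a call only with no filter on low counts (adjusted p = 0.00484). The gene lies at chr17:34255274-34257208 on the plus strand.

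**Figure D2:**
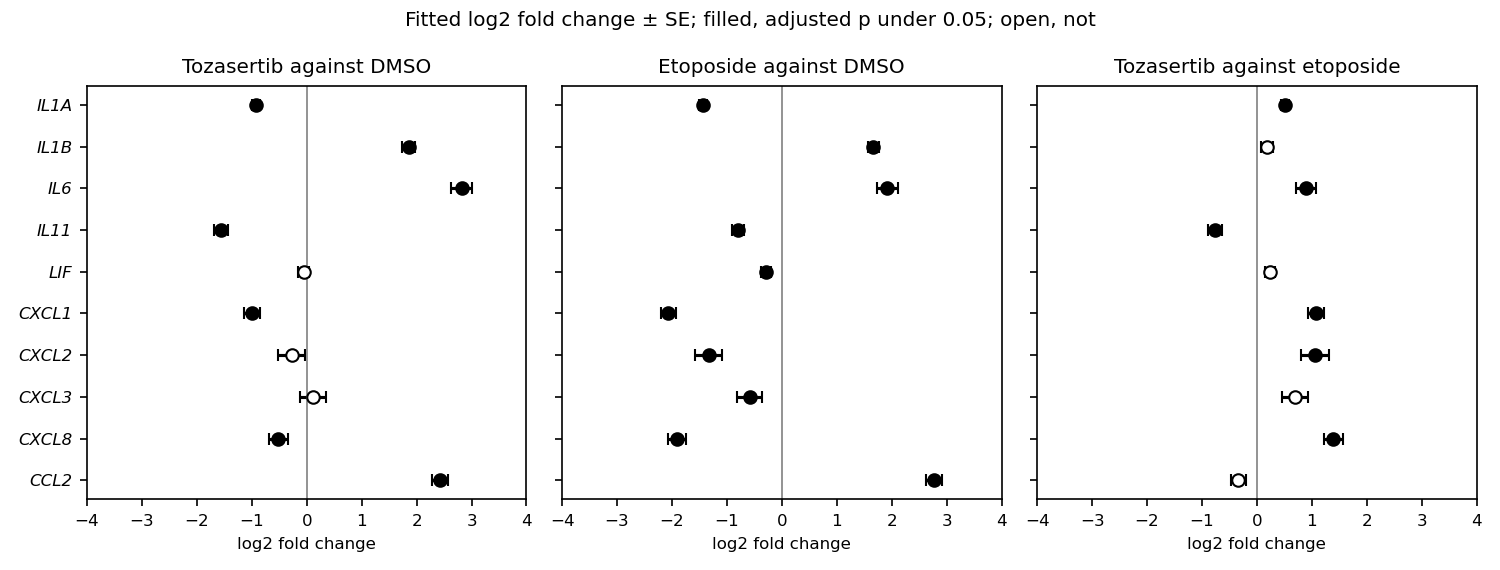
Fitted log2 fold change (horizontal axis) with its SE for the 10 genes in the 3 comparisons, filled where the adjusted p was under 0.05. IL6, IL1B and CCL2 lie right of 0 for both drugs against DMSO, and the 4 CXCL genes lie further left for etoposide than for tozasertib.

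Within the groups, on the scale of log2 CPM, DMSO replicate 2 was above the mean of its group for all 10 genes. The margin was only 0.001 for IL1A and 0.002 for IL11. DMSO replicate 4 was below that mean for 9. Tozasertib replicate 1 and etoposide replicate 1 were each below theirs for 8, and DMSO replicate 1 for 7. Tozasertib replicate 2 and DMSO replicate 3 were each above theirs for 7. Deviations from the group mean also followed gene length in some DMSO libraries. Spearman's rho of a gene's deviation from its group mean on effective length, across genes and with no test, was -0.478 in DMSO replicate 1 and 0.403 in DMSO replicate 4, against -0.0770 to 0.111 in the drug-treated libraries. With an offset that takes out this trend the calls on CXCL3 with etoposide (adjusted p = 0.0787) and on CXCL8 with tozasertib (adjusted p = 0.0625) were lost.

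Ranked by TPM, the make-up of the cytokine mRNA differed between the groups. The 10 genes summed to 1654 ± 175 TPM with tozasertib, 1445 ± 175 with etoposide and 764 ± 131 with DMSO (SD). With tozasertib the order was IL1B (651 TPM), CCL2 (555), CXCL8 (196), LIF (94.7), IL1A (52.6), CXCL1 (50.9), IL6 (17.5), CXCL2 (16.7), IL11 (15.3) and CXCL3 (5.16). The neighbours IL1B and CCL2, IL1A and CXCL1, IL6 and CXCL2, and CXCL2 and IL11 overlapped in their ranges over samples.

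With etoposide the order was CCL2 (660 TPM), IL1B (536), LIF (76.2), CXCL8 (70.6), IL1A (35.2), IL11 (24.5), CXCL1 (22.5), IL6 (9.11), CXCL2 (7.46) and CXCL3 (3.15). Here CCL2 and IL1B, LIF and CXCL8, IL11 and CXCL1, and IL6 and CXCL2 overlapped. With DMSO the order was CXCL8 (227 TPM), IL1B (151), CCL2 (83.9), IL1A (83.6), CXCL1 (83.5), LIF (78.6), IL11 (33.5), CXCL2 (16.6), CXCL3 (3.94) and IL6 (1.91). The ranges of CXCL8 and IL1B overlapped, and those of CCL2, IL1A, CXCL1 and LIF did so from each to the next.

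IL1B and CCL2 led both drug groups. IL1B took 39.3% ± 1.75 of the summed TPM with tozasertib, 37.1% ± 1.12 with etoposide and 19.9% ± 1.02 with DMSO. CCL2 took 33.5% ± 1.94, 45.5% ± 1.84 and 11.2% ± 2.05 (SD). CXCL8 took 11.8% ± 1.65 with tozasertib, 4.88% ± 0.477 with etoposide and 29.3% ± 3.79 with DMSO.

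The ratio of CCL2 to CXCL8, a monocyte attractant over a neutrophil attractant, was 2.88 ± 0.526 with tozasertib, 9.40 ± 0.793 with etoposide and 0.395 ± 0.135 with DMSO in TPM. The 3 groups did not overlap in this ratio, with 2.30 to 3.33, 8.54 to 10.2 and 0.321 to 0.598. IL6 took 1.06% ± 0.235 of the summed TPM with tozasertib, 0.644% ± 0.245 with etoposide and 0.248% ± 0.0287 with DMSO. TPM rests on effective lengths that Salmon set for each sample. For LIF, TPM was 94.7 ± 8.83 with tozasertib and 78.6 ± 13.5 with DMSO, while CPM was 210 ± 15.5 and 217 ± 20.1.

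**Figure D3:**
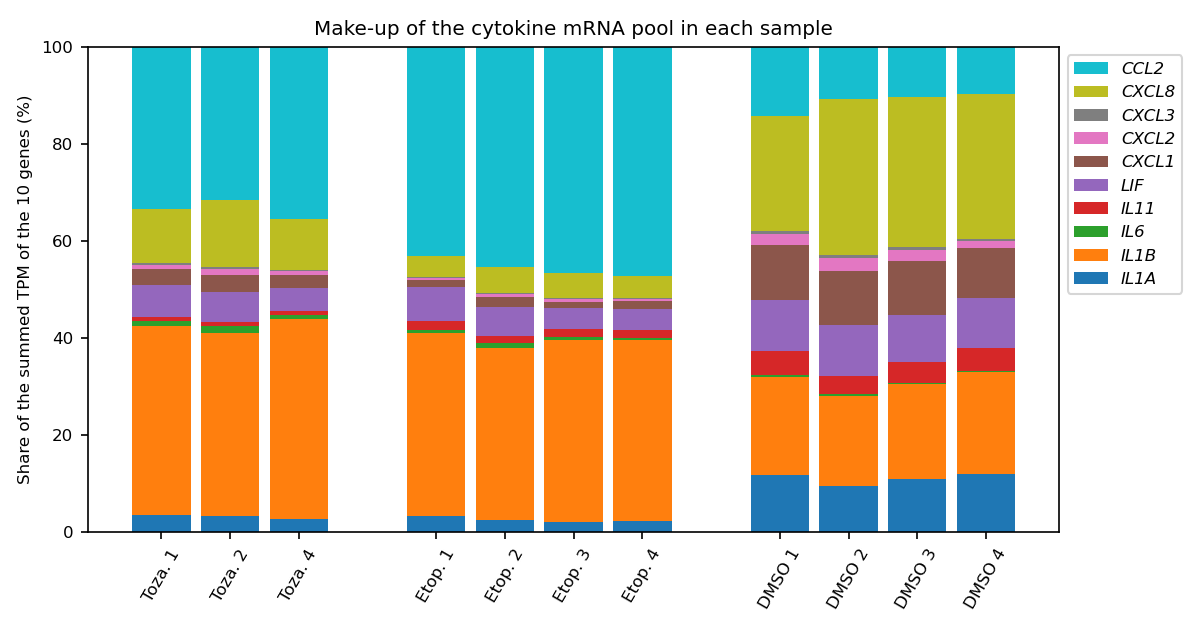
Share of each gene in the summed TPM of the 10 genes (vertical axis, percent) in each tozasertib, etoposide and DMSO sample (bars). IL1B and CCL2 fill most of the bar in every drug-treated sample, and CXCL8 fills more of it with DMSO than with either drug.

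**Figure D4:**
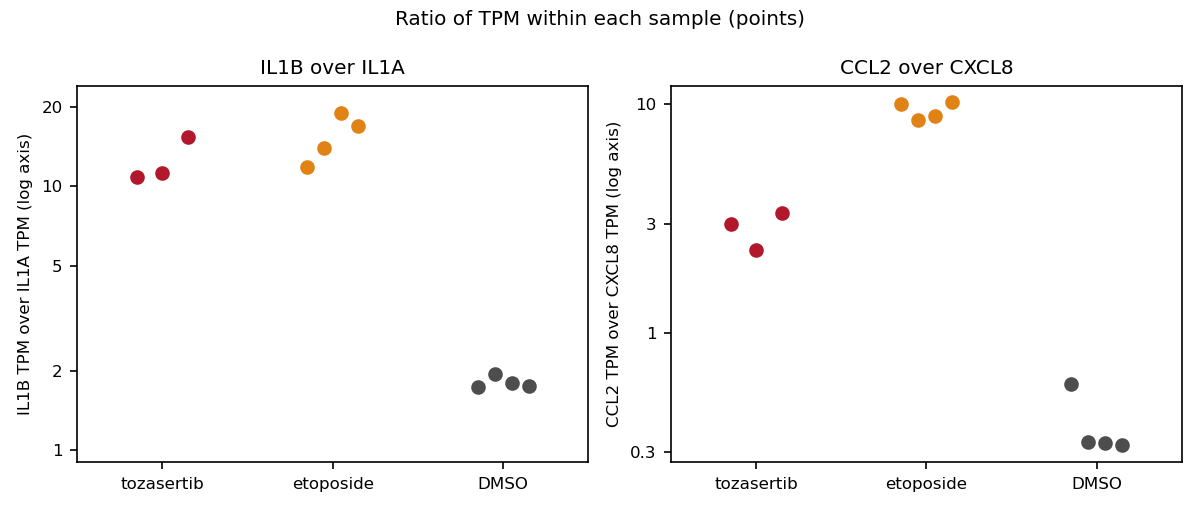
Ratio of the TPM of IL1B to IL1A (left) and of CCL2 to CXCL8 (right) on log axes in each sample (points) of the tozasertib, etoposide and DMSO groups. The DMSO samples lie below every drug-treated sample in both ratios, and tozasertib and etoposide separate in the right one.

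Call counts for the gene lists below stand beside 59.2% of all genes called with tozasertib against DMSO and 58.3% with etoposide. Between the drugs the share was 11.1%, and no list was tested against these shares. The receptor list held receptors of these cytokines and OSMR, the receptor of oncostatin M, which is not among the 10. Of 13 receptor genes 8 were tested, of which 3 were higher and 2 lower with tozasertib and 2 higher and 3 lower with etoposide against DMSO, with medians of -0.04 and -0.0021. IL1RAP, the accessory chain that IL-1 receptors need to signal, averaged 152 ± 7.54 CPM with tozasertib, 169 ± 4.07 with etoposide and 86.0 ± 18.9 with DMSO (log2 0.82 and 0.97, adjusted p = 0.000127 and 1.64e-05). IL1R1, the signalling receptor itself, was far lower at 0.842, 0.514 and 0.402 CPM (log2 1.06, adjusted p = 0.0493 for tozasertib, and 0.34, adjusted p = 0.521 for etoposide). The gp130 gene IL6ST had 144 ± 3.39, 129 ± 9.93 and 142 ± 33.6 CPM and was not called in any comparison.

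The ligand-specific gp130 partners were lower or not called. LIFR, the LIF receptor, averaged 7.18 ± 0.809 CPM with tozasertib, 8.46 ± 1.11 with etoposide and 15.7 ± 3.20 with DMSO (log2 -1.12 and -0.90, adjusted p = 4.22e-05 and 0.000123). OSMR, the oncostatin M receptor, was lower with both drugs (log2 -0.26 and -0.30, adjusted p = 0.0312 and 0.0116). IL6R was lower with etoposide (log2 -0.72, adjusted p = 0.00541) and not called with tozasertib (-0.29, adjusted p = 0.224), and IL11RA was called with neither (-0.10 and 0.14).

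Chemokine receptors were close to 0. CXCR2, the receptor of the CXCL members, held 91, 31 and 5 reads over the tozasertib, etoposide and DMSO samples (adjusted p = 0.000366 and 0.0236 against DMSO), CXCR1 2, 0 and 0, and CCR2, the receptor of CCL2, 2, 0 and 0. The decoys IL1R2, ACKR1 and ACKR2 were too low to be tested. Between tozasertib and etoposide, edgeR called 0 of the 8 tested receptors, DESeq2 0, and 1 (CXCR2) had an unadjusted p under 0.05.

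Of 18 genes of the IL-1 family and its processing 7 were tested. With tozasertib 4 were higher and 2 lower (median 0.44), and with etoposide 1 was higher and 3 were lower (median 0.04). CASP1, the protease that cuts IL-1β, averaged 3.56 ± 0.0520 CPM with tozasertib, 1.00 ± 0.315 with etoposide and 0.964 ± 0.165 with DMSO, a log2 fold change of 1.88 for tozasertib (SE 0.23, adjusted p = 1.31e-05) and 0.07 for etoposide (adjusted p = 0.802). Tozasertib was above etoposide by 1.81 (adjusted p = 0.000196).

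CASP4, an inflammatory caspase, was higher with tozasertib (0.44, adjusted p = 2.13e-05), as were NLRP1, an inflammasome sensor (0.54, adjusted p = 0.0203), and IL18BP, a soluble inhibitor of IL-18 (0.84, adjusted p = 0.00117). IL18BP was also the 1 gene higher with etoposide (0.56, adjusted p = 0.0109). The sensor NLRP3 was lower with tozasertib (-0.48, adjusted p = 0.0112) and etoposide (-1.08, adjusted p = 1.68e-05). AIM2, a sensor of cytosolic DNA, averaged 12.7 ± 1.5, 4.35 ± 0.683 and 15.2 ± 1.33 CPM with tozasertib, etoposide and DMSO, lower with etoposide (-1.80, adjusted p = 4.22e-08).

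The calpain gene CAPN1, whose class of protease cuts IL-1α, was lower with both drugs (-0.30 and -0.22, adjusted p = 0.000568 and 0.00254). The inflammasome adaptor PYCARD was listed with 0 reads in every group. The receptor antagonist IL1RN held 31 reads over the tozasertib samples, 3 over the etoposide samples and 0 over the DMSO samples and was not tested.

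Other chemokines of the same loci or families were few. Of 4 further CXC chemokine genes, 1 was tested. CXCL5 had 8.23 ± 1.13 CPM, 6.30 ± 1.43 and 7.01 ± 1.24 and was not called in any comparison (adjusted p = 0.297, 0.441 and 0.209). CXCL6, PPBP and PF4 held 0 or 1 read in all groups.

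The remaining CXC and CX3C chemokines listed were close to 0 CPM with DMSO. CXCL10, an interferon-inducible T cell attractant, held 181 reads over the tozasertib samples, 29 over the etoposide samples and 0 over the DMSO samples, at least 56.6-fold and at least 8.20-fold higher than a floor of 3 reads over the DMSO group (adjusted p = 1.81e-05 and 0.00151). CXCL11, of the same kind, held 229, 25 and 7 reads (adjusted p = 2.46e-05 and 0.0978), and the membrane-bound chemokine CXCL16 69, 37 and 9 (adjusted p = 0.00110 and 0.0178). Of the 8 genes of this list 3 were tested, with 3 higher with tozasertib and 2 with etoposide. The medians of 4.89 and 1.84 are the same with CXCL10 at its bound. CXCL10, CXCL11 and CXCL16 averaged 0, 0.0594 and 0.0735 CPM with DMSO and passed the filter on low counts through drug-treated samples. That filter favoured genes higher with the drugs, so these counts and medians say nothing of the list's direction. CXCL10 and CXCL11 were also higher with tozasertib than with etoposide (adjusted p = 0.00485 and 0.00143).

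Of 10 other CC chemokines 5 were tested, with 3 higher and 2 lower for tozasertib (median 1.78) and 2 higher and 2 lower for etoposide (median 1.15). CCL3, encoding MIP-1α, averaged 21.8 ± 0.285, 14.4 ± 1.99 and 6.35 ± 1.25 CPM (log2 1.78 and 1.18, adjusted p = 2.05e-07 and 6.05e-06). CCL4, encoding MIP-1β, averaged 2.55 ± 0.347, 2.59 ± 0.460 and 0.193 ± 0.0393 CPM (log2 3.69 and 3.71, adjusted p = 4.15e-08 and 2.76e-08). CCL5, a T cell attractant, held 87, 34 and 13 reads and was called for tozasertib (adjusted p = 0.000536) but not for etoposide (adjusted p = 0.0818), and it was above etoposide with tozasertib (log2 1.5, adjusted p = 0.0471). CCL20 and the mucosal chemokine CCL28 were lower with both drugs (CCL20 -1.68 and -1.2, CCL28 -0.72 and -0.77). CCL7 and CCL8, neighbours of CCL2 in the MCP family, held 0 to 3 reads per group.

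Of 7 other gp130 cytokines 4 were tested. CTF1 (cardiotrophin 1) was higher with tozasertib (0.63, adjusted p = 0.0152) and etoposide (1.13, adjusted p = 0.000156), as was EBI3, a subunit of IL-27 (48, 78 and 13 reads, adjusted p = 0.0146 and 0.00246). CLCF1 was lower with both (-0.45 and -0.54, adjusted p = 0.000289 and 3.34e-05). CNTF was lower with etoposide (-1.45, adjusted p = 0.000582) and had -0.67 with tozasertib (adjusted p = 0.0602). The list's medians were 0.09 and 0.30. Between the drugs edgeR called 0 of the 4, DESeq2 0, and 2 (CTF1 and CNTF) had an unadjusted p under 0.05.

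Among 21 other secreted factors 17 were tested, with 7 higher and 5 lower for tozasertib and 5 higher and 7 lower for etoposide (medians -0.10 and -0.20). IL24, a cytokine of the IL-10 family, averaged 95.9 ± 10.8 CPM with tozasertib, 18.4 ± 2.07 with etoposide and 173 ± 15.5 with DMSO, a log2 fold change of -0.85 and -3.23 (adjusted p = 9.81e-06 and 4.87e-11). CSF1, the macrophage growth factor, averaged 57.01 ± 2.26, 27.4 ± 1.24 and 21.9 ± 0.638 CPM (log2 1.38 and 0.32, adjusted p = 7.64e-10 and 0.000313). TNFSF10, which encodes the death ligand TRAIL, averaged 8.45 ± 0.604, 1.19 ± 0.332 and 0.723 ± 0.218 CPM (log2 3.55 and 0.73, adjusted p = 3.47e-08 and 0.0225).

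The angiogenic factor VEGFA was lower with both drugs (-1.72 and -1.65, adjusted p = 9.84e-07 and 4.86e-07), as was the EGF receptor ligand TGFA (-1.30 and -1.41, adjusted p = 2.61e-05 and 4.90e-06). CSF2, encoding GM-CSF, was lower with tozasertib (-2.20, adjusted p = 0.000209) and etoposide (-3.26, adjusted p = 6.17e-06). IL32, a proinflammatory cytokine, was higher with both (1.32 and 1.5, adjusted p = 8.83e-06 and 1.36e-06). TNF held 7, 8 and 19 reads and was not tested.

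Between the drugs, 6 of the 17 tested secreted factors were called, all higher with tozasertib: IL24 (2.38), TNFSF10 (2.82), the EGF receptor ligand AREG (1.66), GDF15 (1.65), TNFSF15 (1.14) and CSF1 (1.06), with adjusted p between 2.75e-08 and 0.0292. The median of that list was 0.55, beside 0.60 for the 10 cytokines and 0.01 for all genes.

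Transcription factors known to act on cytokine genes were called in both directions. Among all genes tested, 59.2% were called with tozasertib and 58.3% with etoposide. Of 20 genes 18 were tested, with 3 higher and 7 lower for tozasertib (median -0.22) and 2 higher and 12 lower for etoposide (median -0.53). FOSL2, an AP-1 subunit, averaged 555 ± 15.3 CPM with tozasertib, 656 ± 20.8 with etoposide and 186 ± 18.3 with DMSO (log2 1.58 and 1.82, adjusted p = 1.15e-09 and 2.02e-10). The stress factor ATF3 averaged 111 ± 15.1, 109 ± 14.1 and 23.5 ± 4.75 CPM (log2 2.24 and 2.21, adjusted p = 2.66e-08 and 1.95e-08).

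NFKB1, the p50 subunit of NF-κB, averaged 44.6 ± 1.68, 35.9 ± 1.47 and 67.3 ± 4.07 CPM (log2 -0.59 and -0.91, adjusted p = 4.21e-06 and 2.96e-08). FOSL1 was lower with both drugs (-0.52 and -0.85, adjusted p = 5.35e-06 and 1.83e-08). CEBPB, the C/EBPβ gene, was lower with etoposide (-0.52, adjusted p = 6.31e-05) and had -0.17 with tozasertib (adjusted p = 0.0940). RELA, the p65 subunit, had 139 ± 1.37, 137 ± 7.55 and 138 ± 7.31 CPM and was not called in any comparison. Its activity depends on the protein's place in the cell, which these data do not measure.

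Between the drugs 6 of these factors were higher with tozasertib and 1 was lower. Those higher were RELB (0.42), FOSL1 (0.34), NFKB1 (0.32), CEBPB (0.35), JUN (0.23) and NFKBIZ (0.56), the last a nuclear co-factor needed for a set of NF-κB target genes. FOSL2 was the lower one (-0.24, adjusted p = 0.0492).

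**Figure D5:**
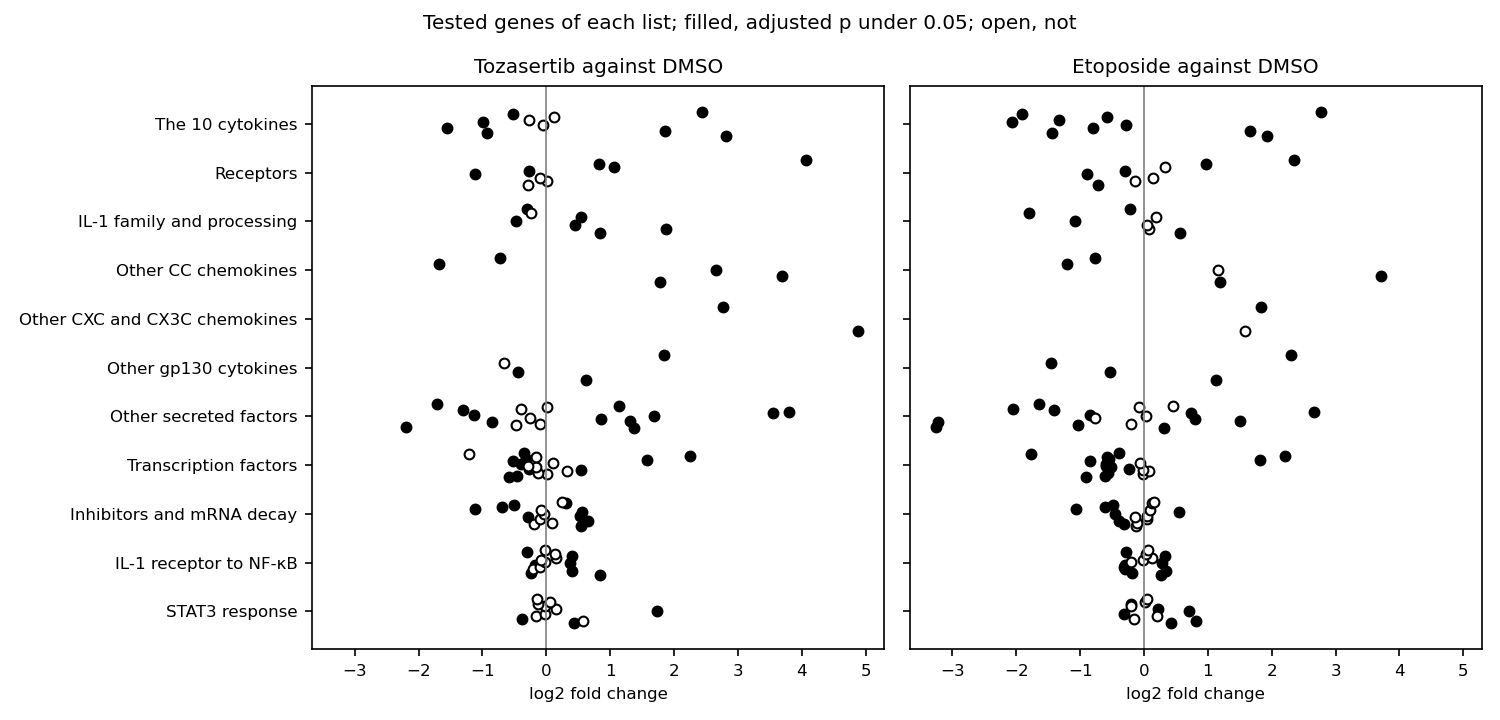
Log2 fold change (horizontal axis) of the tested genes of each list (rows) for tozasertib and etoposide against DMSO, filled where the adjusted p was under 0.05. The 10 cytokines lie on both sides of 0 with each drug, and CXCL10, with 0 reads in the DMSO group, is not drawn.

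Inhibitors of NF-κB and regulators of mRNA decay, which set how long cytokine mRNA lasts, were tested for 15 genes, with 5 higher and 4 lower for tozasertib (median -0.03) and 1 higher and 6 lower for etoposide (median -0.12). NFKBIA, the inhibitor IκBα and itself an NF-κB target, averaged 67.0 ± 1.73 CPM with tozasertib, 42.3 ± 3.42 with etoposide and 46.1 ± 6.34 with DMSO (log2 0.54, adjusted p = 0.000411 for tozasertib, and -0.12, adjusted p = 0.281 for etoposide). TNFAIP3, encoding A20, another inhibitor of this pathway, was higher with tozasertib (0.66, adjusted p = 0.00175) and lower with etoposide (-0.39, adjusted p = 0.0327). ZC3H12A, encoding the nuclease Regnase-1 that cuts IL6 mRNA, was higher with tozasertib (0.52, adjusted p = 0.000617) and not called with etoposide (0.04).

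NFKBIA, TNFAIP3 and ZC3H12A were the 3 genes called between the drugs in that list, all higher with tozasertib (0.66, 1.05 and 0.48, adjusted p = 0.000781, 0.000510 and 0.00743). The decay factors HNRNPD (-1.12 and -1.07, adjusted p = 7.39e-08 and 4.22e-08) and KHSRP (-0.70 and -0.61, adjusted p = 2.23e-07 and 2.98e-07) were lower with both drugs, and ZFP36L1 was higher with both (0.56 and 0.54, adjusted p = 1.47e-06 and 9.98e-07).

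The pathway from IL-1 receptors to NF-κB had 14 of 15 genes tested, with 4 higher and 3 lower for tozasertib (median -0.01) and 4 higher and 5 lower for etoposide (median 0.01). MYD88, the adaptor of these receptors, averaged 130.3 ± 6.39, 87.0 ± 4.91 and 72.5 ± 1.96 CPM (log2 0.85 and 0.26, adjusted p = 6.55e-08 and 0.00131), and it was the 1 gene called between the drugs (0.58, adjusted p = 3.23e-05). The kinases IKBKB (0.40 and 0.33) and IRAK2 (0.40 and 0.35) were higher with both drugs.

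Of 13 genes of the STAT3 response to gp130 cytokines 11 were tested, with 2 higher and 1 lower for tozasertib (median -0.02) and 4 higher and 2 lower for etoposide (median 0.05). STAT3 itself was higher with both drugs (0.43 and 0.42, adjusted p = 8.01e-06 and 4.62e-06). The feedback inhibitor SOCS3, a direct STAT3 target, averaged 14.4 ± 2.32, 17.0 ± 1.11 and 18.9 ± 2.06 CPM and was lower with tozasertib (-0.39, adjusted p = 0.0104). IRF9, better known from the interferon response, was higher with tozasertib (1.73, adjusted p = 1.84e-07) and etoposide (0.70, adjusted p = 0.000378), and higher with tozasertib than with etoposide (1.03, adjusted p = 0.000251).

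Genes with the most similar pattern were sought among 12322 protein-coding genes by the root mean square difference of centred log2 CPM over the 11 samples. Nearest to IL6 was the interferon-induced TRIM22 (0.220), and those nearest to CCL2 were the smooth muscle actin gene ACTA2 (0.183) and the autophagy modulator DRAM1 (0.188). IL1B was nearest to the matricellular gene CCN3 (0.10) and to LURAP1L (0.119). CXCL8 was nearest to CXCL1 (0.250) and AREG (0.288), the only case in which 1 of the 10 genes was among the 2 nearest of another.

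CXCL1 was nearest to the kinase gene SBK1 (0.224) and to LYPD1 (0.226), CXCL2 to the receptor gene NOTCH4 (0.273) and the transcriptional repressor HES1 (0.313), and CXCL3 to the potassium channel gene KCNN2 (0.192) and GPM6A (0.208). IL1A was nearest to AFAP1L1 (0.109) and the neuropeptide Y receptor NPY1R (0.116), IL11 to NT5DC2 (0.118) and TNFAIP8L1 (0.156), and LIF to FUBP1 (0.0710) and the methionine adenosyltransferase gene MAT2A (0.0750). In bulk RNA of this kind, fewer expressing cells and less RNA per cell cannot be told apart.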

How the data were processed

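Total RNA was extracted on columns, and stranded libraries were prepared from it with poly(A) enrichment. According to the submitters' processing notes, Salmon 1.9.0 was used with GRCh38, beside cutadapt 4.7, DESeq2 1.40.2 and R 4.4.2. The deposited tables, per the file headers, come from Salmon and give every transcript an estimated count of reads, which is neither whole nor normalized, and the authors' TPM, scaled by effective length and by the sample's total. The study's methods name another aligner, and options of Salmon were not given in the sources used here. Salmon shares ambiguous reads between transcripts by estimate.

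Transcripts were joined to GENCODE release 44 by versioned identifier (99.6% of 251645 matched, 907 did not, holding 0.318% to 0.359% of reads). Counts were summed to genes and rounded. No pair of replicates agreed within sampling noise. The quasi-likelihood test of edgeR 4.0.16 (R 4.3.3, TMM scaling, filterByExpr, all 11 samples, 1 mean per group, two-sided) was adjusted by the Benjamini-Hochberg method over 17033 genes, with a call at an adjusted p under 0.05. SE are the fold change over the root of edgeR's F, and the pipeline was tested on simulated data. CPM is scaled by TMM. A gene near 0 in some groups could pass the filter through the others. CXCL10, CXCL11, CXCL16, CCL4, CCL5, CXCR2, EBI3 and TNFSF15 passed through drug-treated samples and CCL20 through DMSO samples. The direction of their calls against DMSO was therefore favoured by the filter. Alternatives were DESeq2 1.42.0, its size factors, library size alone, no filter, length-scaled counts, a length offset, only the groups compared, a replicate block and leaving out each sample.

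The 10 genes and all lists were chosen with earlier results of these data known. The text names the 10 genes, 3 check genes, all receptors, for each drug against DMSO up to 4 genes per list by adjusted p, all genes of a direction with 5 or fewer calls where named, and the 2 genes nearest in pattern with a mean of at least 1 CPM, of which 1 is not reported here. Other genes named for reads near 0 or for a missing call were chosen after their values were seen.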

Additional observations from a re-analysis of the deposited data

How the results depend on the processing

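Against DMSO, IL6, IL1A, IL1B, IL11, CXCL1 and CCL2 for both drugs, and CXCL2 and CXCL8 for etoposide, kept direction and call under every alternative run. Tozasertib against DMSO changed sign, without a call on either side, for LIF (0.0384 with library size alone, 0.0278 with length-scaled counts, 0.0029 without tozasertib replicate 4 and 0.0134 without DMSO replicate 2, in a range of -0.0932 to 0.0134 over the samples left out) and for CXCL3 (-0.2097 without tozasertib replicate 2, in a range of -0.2097 to 0.2744). The etoposide call on CXCL3 was also lost with DESeq2's size factors (adjusted p = 0.0514), library size alone (0.0578), no filter (0.0505), length-scaled counts (0.140) and the length offset without and with the replicate block (0.0787 and 0.0667). In all 12 alternatives ended that call and 5 kept it, with an adjusted p of 0.0241 to 0.140. LIF with tozasertib became a call only with the length offset and replicate block together (-0.15, adjusted p = 0.0436). The cause of these changes was not tested. Between tozasertib and etoposide the count of all genes called was 1133 with length-scaled counts, 3549 with only the 2 groups compared, and 1032 to 2175 with each sample left out in turn, against 1893. DESeq2 called 2584.

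With the replicate number as a block, 10, 7 and 6 of the 10 genes were called (etoposide against DMSO, tozasertib against DMSO, tozasertib against etoposide), as without it, and 9848, 9794 and 1615 of all genes. The block changed the SE in both directions. For CXCL8 with tozasertib against DMSO it gave -0.44 (SE 0.09, adjusted p = 0.00224), where the SE without it was 0.18 (adjusted p = 0.0221). For CCL2 with etoposide against DMSO the SE was 0.16 with the block and 0.14 without it. The deviations of same-numbered samples correlated at a median of 0.03 over 10 pairs (-0.09 to 0.23, above 0.1 in 2). Differently numbered samples had a median of -0.02 over 30 pairs (-0.21 to 0.16). Same-numbered etoposide and tozasertib samples correlated at 0.23, 0.09 and 0.12 (replicates 1, 2 and 4), and same-numbered pairs with a DMSO sample at -0.09 to 0.05. Of 11 samples, 5 correlated best with their own number. These values do not settle whether the numbers pair the samples. Read counts were smallest for IL6 and CXCL3, with as few as 28 and 43 reads in a sample.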
